A study of Mus musculus with 14 samples.

Results

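The genes described here encode enzymes that remove superoxide and peroxides, the sestrins Sesn1 and Sesn3, and the thioredoxin-binding protein Txnip, all known as targets of FoxO transcription factors or close relatives of such targets. The members are Sod1, Sod2, Sod3, Cat, Gpx1, Gpx3, Prdx3, Sesn1, Sesn3 and Txnip, and every probe set annotated to their symbols was taken. They are 10 of the 18193 genes with a probe set of their own and 24 of the 45101 probe sets of the Mouse Genome 430 2.0 array of Affymetrix. RNA came from 14 mouse samples, with 1 array each: 3 control and 3 Cre+ samples of liver sinusoidal endothelial cells (LSEC), 2 and 2 of lung endothelial cells, and 2 and 2 of thymus cells. All mice carried floxed (L/L) alleles of Fk1, Fk2 and Afx, today called Foxo1, Foxo3 and Foxo4 in that order, on the FVBn background. Controls were MxCre- and Cre+ samples were MxCre+. The Mx promoter that drives this Cre responds to interferon and is active in many cell types, so recombination is not limited to endothelium or thymocytes. The labels give no age, induction scheme, isolation method or statement that replicates came from separate animals, so p-values measure the spread between samples.

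FoxO factors are held in the cytoplasm by insulin and growth factor signalling through Akt, and in the nucleus they raise genes of stress resistance and cell cycle arrest. Superoxide dismutases turn superoxide into hydrogen peroxide, which catalase, glutathione peroxidases and peroxiredoxins remove. Sestrins restrain the growth kinase complex mTORC1 when amino acids are short or cells are stressed, and Txnip binds thioredoxin and lowers glucose uptake.

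The floxed genes serve as the check of the labels, although it is not known here which of their probe sets lie within the deleted exons. In a limma fit over 27022 probe sets, all 3 Foxo1 probe sets above the limit on dim signals were lower in Cre+ LSEC (log2 fold change -0.93, -2.10 and -3.56) and in Cre+ thymus (-1.19, -1.02 and -1.80), and those of lung endothelial cells did not pass (-0.51, -1.06 and -1.29). The Foxo4 probe set 1456753_at fell by 2.15 in LSEC and 3.24 in thymus, and in lung it gave -1.10 (adjusted p = 0.344). Foxo3 fell on 2 probe sets in LSEC and rose on 1434832_at in thymus, by 0.68, and none of its probe sets passed as lower in lung or thymus. The Foxo3 rise in thymus passed in 16 of 24 settings, and not without thymus control replicate 1 (adjusted p = 0.117) or 2 (0.12) or thymus Cre+ replicate 2 (0.0651). The Foxo1 calls in thymus held in 19 of 24, 7 of 24 and 7 of 23 settings, and at least 2 of the 3 were lost without either thymus control. Normalised log2 values of arrays in 1 group had a correlation of 0.970 to 0.987 over genes, and 2 or 3 arrays a group limit the precision of every value. Markers of the labelled cells moved with genotype in LSEC, where 2.81% of all genes tested passed as higher and 3.25% as lower. Of 11 LSEC marker genes 9 fell. The sum of their antilog levels, in arbitrary units, ran from 18551 to 26742 in control and from 5456 to 9574 in Cre+ LSEC. Such a sum weighs bright genes most. General endothelial markers summed to 20978 to 26020 and 17153 to 20932 in the same groups, with 3 of 12 lower. Lung endothelial markers summed to 5508 to 6942 in control and 11071 to 13280 in Cre+ LSEC, with 1 of 9 higher. Summed macrophage markers were 12128 to 25030 in control and 9085 to 20201 in Cre+ LSEC (1 of 11 lower), neutrophil markers 1340 to 1510 and 1680 to 3747 (1 of 5 higher), and mast cell markers 1423 to 1906 and 1775 to 3257 (3 of 7 higher and 1 lower). Hepatocyte markers ran from 1423 to 1581 and from 1527 to 1624 (1 of 5 higher), and stellate and mural markers from 4349 to 5303 and from 4325 to 5034 (2 of 14 lower). Of the 11 hepatocyte genes on the array, 6 had means under the limit in control and in Cre+ LSEC, and 5 had means over it. Alb was among the 6 and stayed under the limit in every group. No marker of these lists was at 0 on every array of an LSEC group. The part of these other cells in the results below was not tested. In such bulk samples fewer cells of a type and less RNA per cell cannot be told apart.

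Promoter sequence was available for 9 of the 10 members, Sod3 being the exception, as the 250 bases before each RefSeq transcript start in GRCm38.p6. The windows of the genes that passed a test are shown with that of Txnip, the member whose window holds a forkhead element. Capitals mark GTAAACA, the core forkhead element, and the GC box GGGCGG or its reverse complement, and each sequence is given 5′ to 3′ on the strand of the gene, which is the plus strand for all 6 windows. Positions are chr17:13007589-13007838 for Sod2, chr11:54902604-54902853 for Gpx3, chr10:41810324-41810573 and chr10:41887189-41887438 for the upstream and downstream starts of Sesn1, chr9:14276051-14276300 for Sesn3 and chr3:96557707-96557956 for Txnip.
Sod2: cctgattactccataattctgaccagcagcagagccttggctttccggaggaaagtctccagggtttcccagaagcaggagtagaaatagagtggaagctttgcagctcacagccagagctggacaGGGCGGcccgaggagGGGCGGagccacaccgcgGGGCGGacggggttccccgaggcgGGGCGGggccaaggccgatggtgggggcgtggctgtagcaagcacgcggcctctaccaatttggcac
Gpx3: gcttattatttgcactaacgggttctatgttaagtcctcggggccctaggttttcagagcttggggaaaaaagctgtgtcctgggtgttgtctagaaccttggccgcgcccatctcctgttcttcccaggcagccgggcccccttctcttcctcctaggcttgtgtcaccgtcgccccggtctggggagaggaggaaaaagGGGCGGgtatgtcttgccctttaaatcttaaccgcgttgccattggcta
Sesn1 upstream start: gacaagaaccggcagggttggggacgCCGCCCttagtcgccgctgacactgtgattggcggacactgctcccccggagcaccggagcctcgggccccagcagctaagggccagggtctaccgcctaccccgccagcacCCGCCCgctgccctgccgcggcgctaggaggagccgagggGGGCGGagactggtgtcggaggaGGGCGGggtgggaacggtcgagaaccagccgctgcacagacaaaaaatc
Sesn1 downstream start: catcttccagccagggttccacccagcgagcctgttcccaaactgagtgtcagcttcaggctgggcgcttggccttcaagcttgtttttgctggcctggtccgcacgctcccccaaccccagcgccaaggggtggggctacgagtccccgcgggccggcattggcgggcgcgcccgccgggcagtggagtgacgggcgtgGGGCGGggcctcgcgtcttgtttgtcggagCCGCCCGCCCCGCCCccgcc
Sesn3: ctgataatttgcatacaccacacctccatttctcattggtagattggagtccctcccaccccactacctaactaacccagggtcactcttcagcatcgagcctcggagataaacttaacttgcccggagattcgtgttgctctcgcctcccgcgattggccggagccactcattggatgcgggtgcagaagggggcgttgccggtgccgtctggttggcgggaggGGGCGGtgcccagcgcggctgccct
Txnip: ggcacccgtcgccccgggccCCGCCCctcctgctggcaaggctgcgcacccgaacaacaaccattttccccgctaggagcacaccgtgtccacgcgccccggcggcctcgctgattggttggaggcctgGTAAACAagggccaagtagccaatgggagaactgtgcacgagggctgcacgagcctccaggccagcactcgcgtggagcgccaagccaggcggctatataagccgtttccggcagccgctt

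Both strands of all 32851 mouse windows of this length were searched. GTAAACA stood in 3.17% of them and in 1 of the 10 member windows, that of Txnip, 121 bases before its start. The insulin response element CAAAACA stood in 5.56% of all windows and in 0 member windows. A GC box stood in 32.7% of all windows and in 9 of the 10 of the members, where Gpx1 was the exception and Sod1, Sod2 and both starts of Sesn1 held 4 matches each. The antioxidant response element TGACNNNGC stood in 10.2% of all windows and among the members in Sod1, 56 bases before its start, and the E-box CACGTG in 6.02% and in 0 member windows. No match overlapped one of another motif, though GC boxes overlapped each other in Sod1 and at the downstream Sesn1 start. The G and C content of the member windows was 42% for Gpx1 and 55.2% to 71.2% for the others, against a median of 52.4% over all windows. These matches describe the letters in the windows and do not show binding.

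In LSEC the comparison of Cre+ with control samples asks which of these genes depend on genotype in this endothelium. Sod2, the mitochondrial manganese superoxide dismutase, rose 1.60-fold, while Gpx3, the secreted glutathione peroxidase, fell 4.63-fold and Sesn1 fell 1.54-fold. The other 7 members did not pass. Counted by gene, with each gene read from its brightest probe set, 3 of 10 passed at a limma adjusted p under 0.05, 1 higher and 2 lower, where 6.06% of the 13034 genes tested passed (2.81% higher and 3.25% lower). At an unadjusted p under 0.05 there were 6 members and 2591 genes in all. The median log2 fold change was -0.04 over the members and 0.01 over all genes, and the control and Cre+ arrays of 5 of 10 members did not overlap, where this held for 23.7% of all genes.

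**Figure D1:**
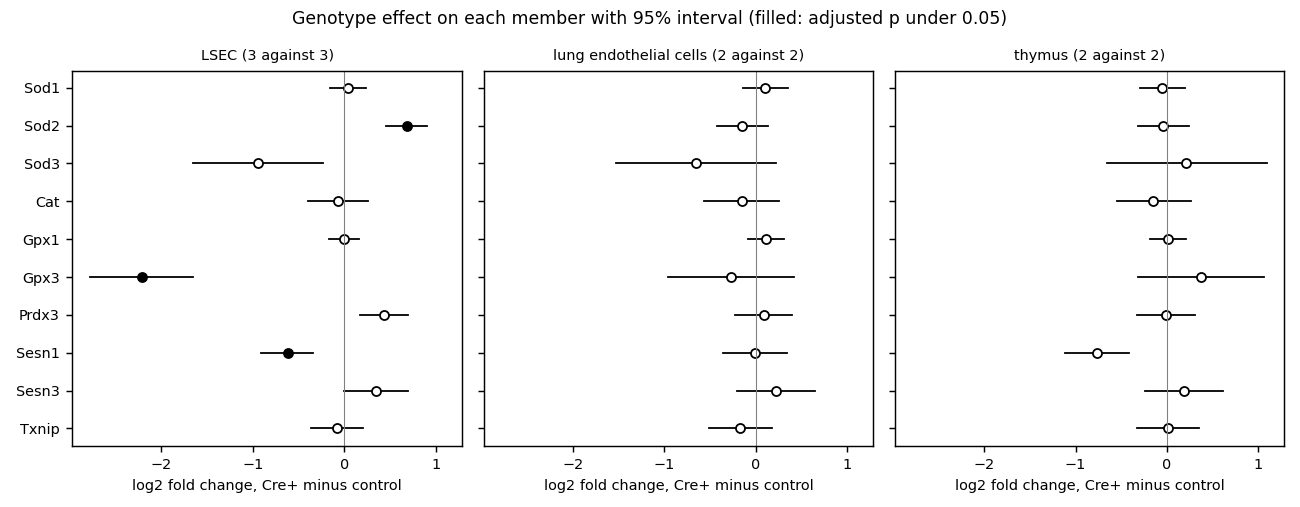
Log2 fold change, Cre+ minus control, of each member in LSEC, lung endothelial cells and thymus, with its 95% interval from limma; filled points passed at an adjusted p under 0.05. In LSEC Sod2 lies at 0.68, Gpx3 at -2.21 and Sesn1 at -0.62; no point is filled in lung or thymus, where Sesn1 lies at -0.01 and -0.77.

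Among the superoxide dismutases, Sod2 had normalised log2 levels of 10.14, 10.06 and 10.07 in the 3 control LSEC samples and 10.85, 10.92 and 10.52 in the 3 Cre+ samples on probe set 1417193_at. Every Cre+ sample lay above every control, and the controls were the tighter group. The log2 fold change was 0.68 (SE 0.10, 95% interval 0.45 to 0.90, limma adjusted p = 0.0027). Probe set 1448610_a_at read 10.21, 10.04 and 10.12 in controls and 10.78, 11.19 and 10.67 in Cre+ LSEC, a difference of 0.76. Probe set 1454976_at read 7.52, 7.60 and 7.58 against 8.24, 8.20 and 8.22, a difference of 0.65. On both the groups were again apart, with adjusted p of 0.0102 and 0.00152 in the fit over probe sets. The fourth Sod2 probe set, 1417194_at, lay at the edge of the limit of 6.87 under which signals count as dim here, overlapped between groups and gave 0.20 (95% interval -0.06 to 0.47, adjusted p = 0.408).

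Sod1, the cytosolic copper-zinc enzyme, differed by 0.04 (95% interval -0.16 to 0.24) on its brightest probe set, where controls read 11.58, 11.49 and 11.44 and Cre+ LSEC 11.40, 11.50 and 11.74. Its 4 tested probe sets lay between -0.11 and 0.04, and all overlapped between groups; the remaining one, 1447761_x_at, was dim in every cell source, at a mean of 2.73 or less, and was not tested. Sod3, the secreted form that binds matrix and vessel walls, read 6.28, 5.99 and 6.24 in controls and 5.30, 5.97 and 4.42 in Cre+ LSEC. The groups were apart by a narrow gap, and all 6 values lay under 6.87, so the size is uncertain. Its difference of -0.94 (95% interval -1.65 to -0.23) had an adjusted p of 0.127 in limma. Without Cre+ replicate 2, whose value lay closest to the controls, the difference was -1.31 and passed (adjusted p = 0.0254), and without Cre+ replicate 3, the lowest array, it was -0.53 (adjusted p = 0.333). The second Sod3 probe set gave -1.03 (adjusted p = 0.119), also under the limit in both groups.

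Of the enzymes that remove peroxides, Gpx3 had the largest change among the members in LSEC. Its only probe set, 1449106_at, read 9.66, 10.55 and 10.36 in controls and 8.48, 7.72 and 7.72 in Cre+ LSEC. The lowest control stood above the highest Cre+ sample by more than either group spread. The log2 fold change was -2.21 (SE 0.26, 95% interval -2.78 to -1.65, limma adjusted p = 0.000604). Among the members it was the only gene past the test by more than 2-fold.

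Prdx3, the mitochondrial peroxiredoxin, read 8.29, 8.21 and 8.42 in controls and 8.95, 8.68 and 8.59 in Cre+ LSEC. The groups did not overlap, and the difference of 0.43 (95% interval 0.17 to 0.69) fell short of the threshold, with a limma adjusted p of 0.0558. It passed with median centring (adjusted p = 0.0487), on the deposited scale (0.0473), with the stricter filter (0.0422), with limma's trend and robust options (0.0349), and without thymus Cre+ replicate 1 or 2 (0.0457 and 0.0456). Catalase, the peroxisomal enzyme encoded by Cat, read 10.84, 10.79 and 11.14 in controls and 10.94, 10.53 and 11.09 in Cre+ LSEC, which overlap. Its difference was -0.07 (95% interval -0.40 to 0.26), and -0.01 on the second probe set. Gpx1, the cytosolic glutathione peroxidase, read 11.85, 11.72 and 11.84 against 11.85, 11.86 and 11.69. Those values overlap, and the interval of the difference, -0.17 to 0.16, was the narrowest among the members in LSEC.

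**Figure D2:**
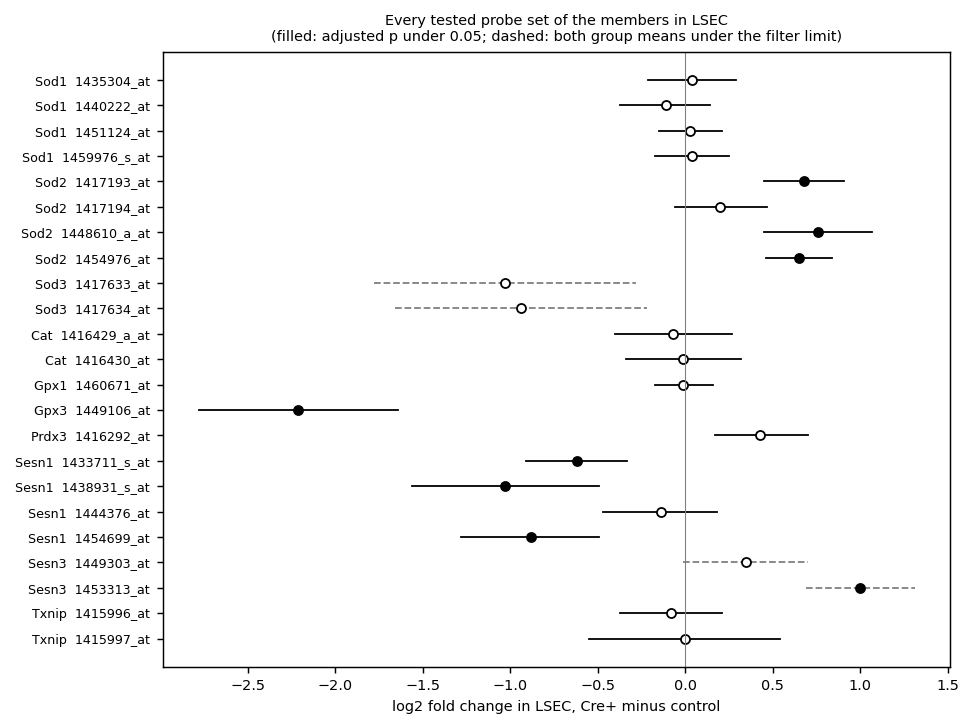
Log2 fold change in LSEC, Cre+ minus control, of each of the 23 member probe sets tested, with its 95% interval; filled points passed at an adjusted p under 0.05 and dashed lines mark probe sets whose group means both lay under the limit of 6.87. The filled points are 3 of 4 for Sod2, the single one of Gpx3, 3 of 4 for Sesn1 and 1 of 2 for Sesn3.

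Sesn1 read 8.87, 8.79 and 8.72 in controls and 8.22, 7.94 and 8.36 in Cre+ LSEC on 1433711_s_at. All Cre+ samples lay below all controls. The log2 fold change was -0.62 (SE 0.13, 95% interval -0.91 to -0.34, limma adjusted p = 0.017). Probe set 1454699_at read 8.03, 7.83 and 7.76 against 7.44, 6.69 and 6.86 and fell by 0.88 (adjusted p = 0.0169). Probe set 1438931_s_at read 8.40, 8.21 and 8.31 against 7.56, 6.57 and 7.71 and fell by 1.03 (adjusted p = 0.0345). On all of these the second Cre+ replicate was the lowest array, and the groups stayed apart. The fourth probe set, 1444376_at, overlapped between groups at -0.14 (95% interval -0.47 to 0.18). The gene's call depended on single arrays: adjusted p was 0.059 without control replicate 1, 0.0532 without control replicate 2 and 0.0533 without Cre+ replicate 2, with log2 fold changes of -0.58, -0.62 and -0.50. It was 0.0517 in a fit of the LSEC arrays alone. The call on 1454699_at was lost without control replicate 1 (0.0612), Cre+ replicate 2 (0.0523) or Cre+ replicate 3 (0.0644), and that on 1438931_s_at without any one LSEC control (0.0739 to 0.0957), any one lung array or any one thymus control (0.0511 to 0.0531).

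Sesn3, a sestrin known as a FoxO1 target, pointed the other way. Probe set 1453313_at read 5.15, 4.94 and 4.81 in controls and 6.14, 5.79 and 5.97 in Cre+ LSEC, 2-fold higher at a log2 fold change of 1.00 (SE 0.14, limma adjusted p = 0.00225). The groups were well apart, but every value lay under 6.87, so the size of this rise is uncertain. The brighter probe set, 1449303_at, read 6.54, 6.06 and 6.76 against 6.78, 6.96 and 6.68, with overlap, and its difference of 0.35 did not pass (95% interval 0.00 to 0.70, adjusted p = 0.251). With the mean of both probe sets the gene passed (0.67, adjusted p = 0.00621). Txnip read 10.55, 10.50 and 10.54 in controls and 10.30, 10.48 and 10.55 in Cre+ LSEC. These overlap, and the difference was -0.08 (95% interval -0.36 to 0.20), with 0.00 on the second probe set.

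Counted by probe set, 8 of the 23 tested passed in LSEC, 4 higher and 4 lower, where 5.23% of the 27022 probe sets tested passed (2.62% higher and 2.61% lower). The count was 5 without control replicate 1, and lay between 6 and 8 when any other array was left out. The 8 were 3 of Sod2, 3 of Sesn1, 1 of Gpx3 and 1 of Sesn3, so most repeat the same genes. That of Sesn3 had LSEC means of 4.97 and 5.97, under the limit, and was tested through its level in other cell sources. For the 7 members with several probe sets, none had probe sets past the test in opposite directions.

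**Figure D3:**
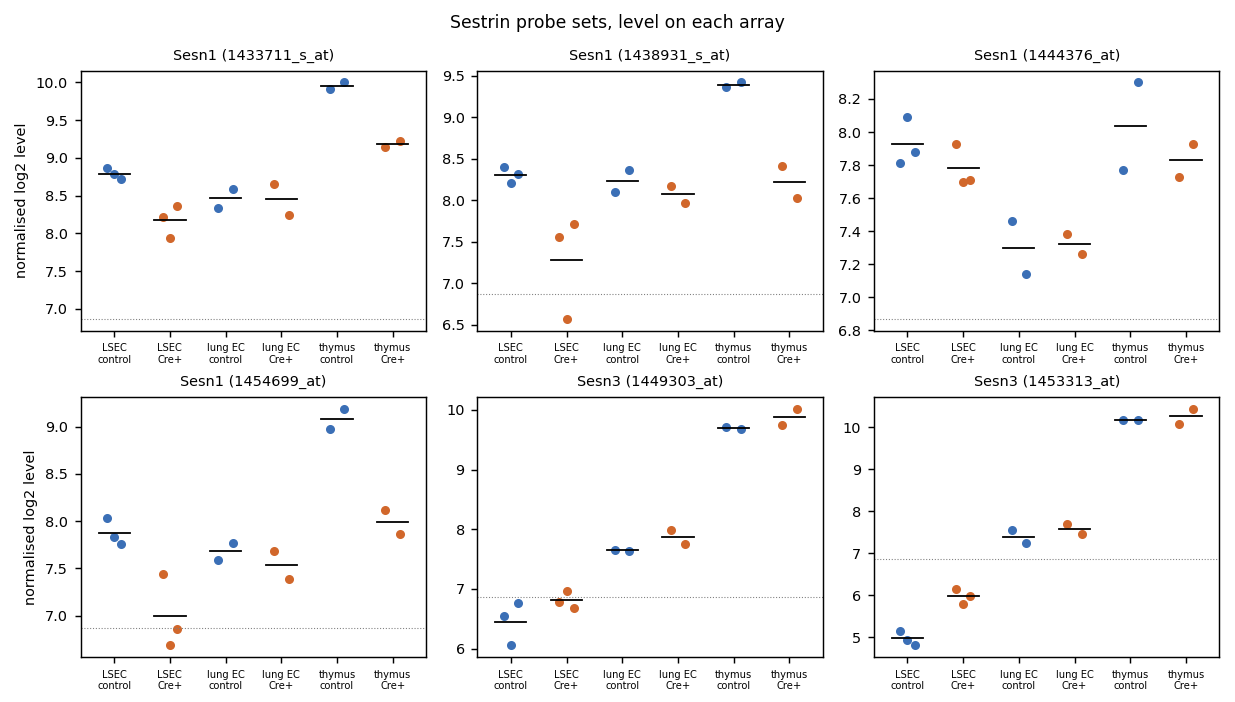
Normalised log2 level of the 4 Sesn1 and 2 Sesn3 probe sets on each of the 14 arrays, in LSEC, lung endothelial cells and thymus, control (blue) and Cre+ (orange); short lines are group means and the dotted line, where in range, the limit of 6.87. On 3 Sesn1 probe sets the Cre+ arrays lie below the control arrays in LSEC and in thymus, and the Sesn3 levels of LSEC lie under those of the other cell sources.

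In lung endothelial cells the same comparison found no member past the test: 0 of 10 genes and 0 of 23 probe sets, where limma passed 0.107% of genes and 0.0333% of probe sets. At an unadjusted p under 0.05 there were 0 members and 594 genes in all. Sod2 read 10.36 and 10.35 in control and 10.26 and 10.15 in Cre+ samples, a difference of -0.15 (95% interval -0.42 to 0.13). Gpx3 was bright in this bed, at 12.74 and 12.87 in control and 12.68 and 12.39 in Cre+ samples, and differed by -0.27 (95% interval -0.96 to 0.42). Sesn1 read 8.34 and 8.59 against 8.66 and 8.25, with overlap, and differed by -0.01 (95% interval -0.36 to 0.34). Arrays of the groups did not overlap for 7 of 10 members, 3 higher and 4 lower, where this held for 38.4% of all genes (21.8% higher and 16.6% lower). The largest difference was that of Sod3, at 7.59 and 8.16 in control and 7.27 and 7.18 in Cre+ samples (-0.65, 95% interval -1.53 to 0.22). Differences of the members not yet given here lay between -0.17 for Txnip and 0.22 for Sesn3. Lung samples also held other cells: lung epithelial markers summed to 13015 to 13442 in control and 12108 to 17298 in Cre+ samples, and fibroblast and mural markers to 28349 to 31289 and 26740 to 27966. Pan-endothelial markers summed to 11029 to 12985 and 8934 to 9583, and no gene of these lists passed. Their part in the values above was not tested.

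In thymus no member passed either, with 0 of 10 genes and 0 of 23 probe sets, where limma passed 0.414% of genes and 0.448% of probe sets. At an unadjusted p under 0.05 there was 1 member, Sesn1, and 1611 genes in all. Sesn1 read 9.91 and 10 in control and 9.14 and 9.23 in Cre+ thymus. The groups were apart by several times their own spread, and the difference was -0.77 (95% interval -1.12 to -0.42, adjusted p = 0.0688). Probe set 1438931_s_at read 9.37 and 9.42 against 8.41 and 8.03, and 1454699_at read 8.98 and 9.19 against 8.12 and 7.86. Their differences were -1.17 and -1.10 (adjusted p = 0.141 and 0.0664), and that of 1444376_at was -0.21. The gene passed with a filter at the 60th percentile (adjusted p = 0.0464) and with limma's trend and robust options (0.0314), as did 1454699_at (0.0461 and 0.0263). Without LSEC Cre+ replicate 1, 1454699_at passed (0.0219), and without LSEC Cre+ replicate 2, 1438931_s_at passed (0.013).

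On their brightest probe sets the remaining thymus members lay closer to 0. Sod3 differed by 0.21 there. On its other probe set, 1417633_at, it read 6.87 and 6.24 in control and 7.33 and 7.33 in Cre+ thymus. Those groups did not overlap, and the difference of 0.77 did not pass (95% interval -0.14 to 1.69, limma adjusted p = 0.527). Gpx3 read 8.76 and 8.17 in control and 8.87 and 8.79 in Cre+ thymus, a difference of 0.37 (95% interval -0.32 to 1.06). Sod2 differed by -0.04 (95% interval -0.32 to 0.24), with overlapping values of 9.19 and 9.25 against 9.27 and 9.08. Sesn3, bright in this organ, read 9.71 and 9.68 against 9.74 and 10.02, a difference of 0.19 (95% interval -0.24 to 0.61). By brightest probe set, groups did not overlap for 3 of 10 members, Gpx3, Sesn1 and Sesn3, where this held for 41.6% of all genes. Thymocyte markers summed to 42123 to 42946 in control and 38829 to 42192 in Cre+ thymus, thymic epithelial markers to 11802 to 13473 and 14447 to 15938, macrophage markers to 6737 to 7016 and 7566 to 10180, and fibroblast and mural markers to 6700 to 7119 and 8341 to 9096 (1 of 14 higher). The part of these shifts in the thymus values was not tested.

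The test of the difference between genotype effects asks whether a member responded differently in 2 cell sources. Between LSEC and thymus 2 of 10 members passed in limma, where 2.34% of all genes did, or 305 genes, a count that became 62 without thymus control replicate 2 and 666 without thymus Cre+ replicate 1. The Gpx3 effect in LSEC minus that in thymus was -2.58 (SE 0.41, adjusted p = 0.0101), and that of Sod2 was 0.72 (95% interval 0.36 to 1.07, adjusted p = 0.0451). By probe set 2 of 23 passed, where 1.65% of all probe sets did. These were the Gpx3 probe set and 1454976_at of Sod2 (0.83, adjusted p = 0.0155). The other Sod2 probe sets did not pass there. Probe set 1417193_at gave 0.72 (adjusted p = 0.0584), 1448610_a_at 0.80 (0.107) and 1417194_at 0.00 (0.997). Without thymus control replicate 2 neither gene passed (Gpx3 -2.29, adjusted p = 0.0605, and Sod2 0.69, adjusted p = 0.176). The Sod2 call was lost without any other array but thymus Cre+ replicate 1 and LSEC Cre+ replicate 3, with adjusted p from 0.0657 to 0.167. For Sesn1 the difference was 0.15 (95% interval -0.30 to 0.60). Between LSEC and lung 0 of 10 passed, against 0.614% of all genes, or 80 genes (4 without lung Cre+ replicate 1), and 3 members had an unadjusted p under 0.05 (1247 genes in all). The differences were 0.82 for Sod2 (adjusted p = 0.0516), -1.94 for Gpx3 (adjusted p = 0.0658) and -0.61 for Sesn1 (adjusted p = 0.323). In 3 and 6 of 25 settings Gpx3 and Sod2 passed here; among these Gpx3 passed without LSEC control replicate 1 (-2.20, adjusted p = 0.0321) or LSEC Cre+ replicate 1 (-2.19, 0.0288), and Sod2 without LSEC Cre+ replicate 3 (0.94, 0.0181). Between lung and thymus 0 of 10 passed, against 0.0307% of all genes, or 4 genes (21 without thymus Cre+ replicate 1), and Sesn1 gave 0.76 (adjusted p = 0.421), the only member with an unadjusted p under 0.05 among 1030 genes.

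**Figure D4:**
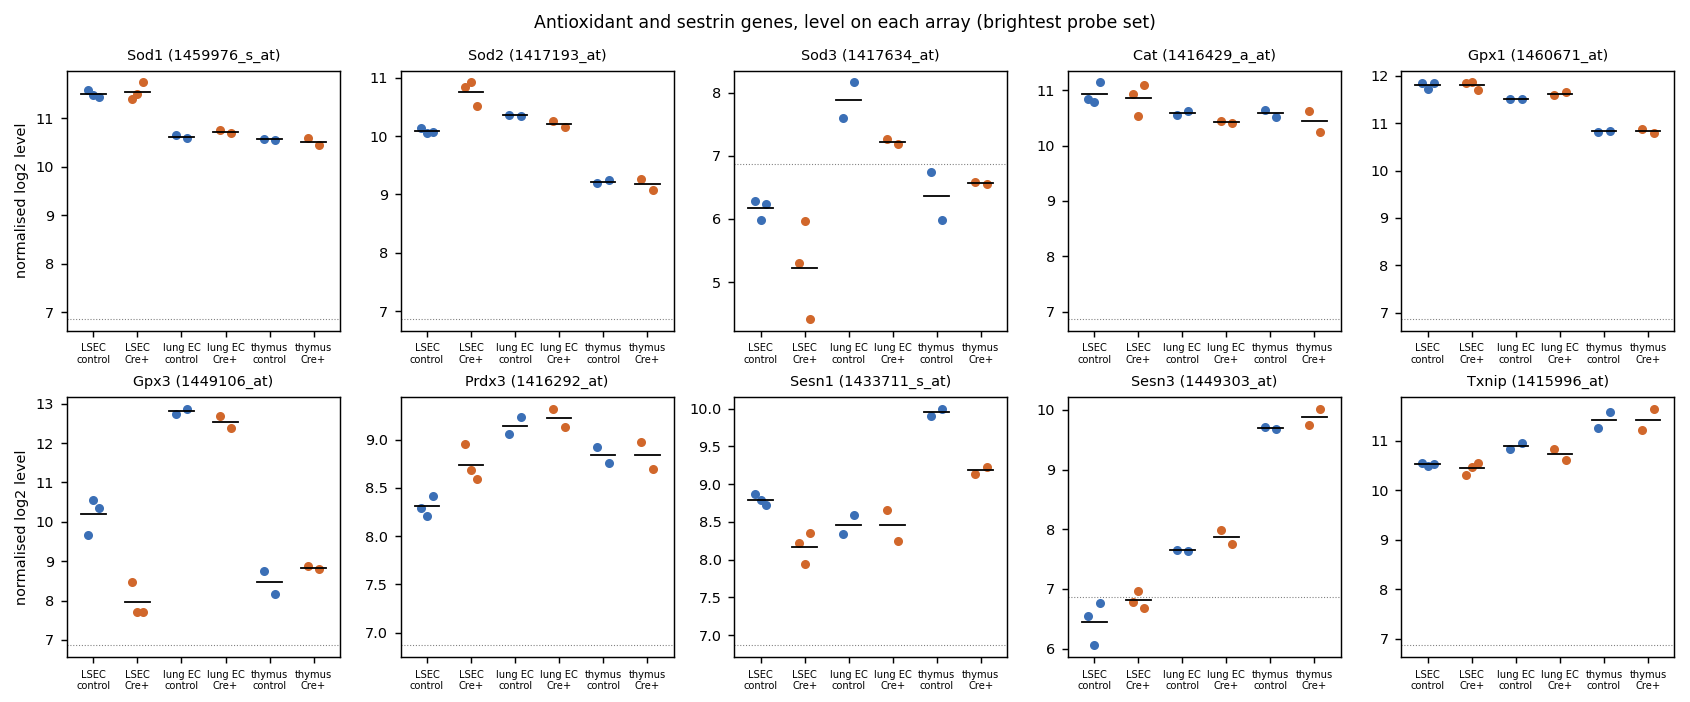
Normalised log2 level of each member on each of the 14 arrays, from its brightest probe set, by cell source in control (blue) and Cre+ (orange) samples; short lines are group means and the dotted line the limit of 6.87. Gpx3 spans the widest range, from 7.72 in Cre+ LSEC to 12.87 in control lung endothelial cells; Cat stays between 10.24 and 11.14 on every array.

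Control samples show the level of each member without Cre. In control lung, fibroblast and mural markers summed to 28349 to 31289, against 4349 to 5303 in control LSEC. Lung epithelial markers summed to 13015 to 13442 against 2117 to 2360, and pan-endothelial markers to 11029 to 12985 against 20978 to 26020. The part of other cells in the differences between controls was not tested. Gpx3 was highest in the lung endothelial cell samples, 6.13-fold above LSEC, and LSEC stood 3.30-fold above thymus. Both steps in that order passed (limma adjusted p of 2.94e-05 and 0.000247). Sesn3 ran the other way, with thymus 4.13-fold above lung on 1449303_at and 6.83-fold on 1453313_at. LSEC lay lowest, by -1.19 against lung on the first probe set and -2.43 on the second, both past the test. Its control means of 6.46 and 4.97 were under the limit, so the size of the gap to LSEC is uncertain. Sesn1 was highest in thymus, 2.24-fold above LSEC (adjusted p = 2.38e-05). LSEC minus lung was 0.33 without passing (95% interval 0.01 to 0.65, adjusted p = 0.0865). Probe set 1444376_at differed in this, with LSEC above lung by 0.63 (adjusted p = 0.00973) and level with thymus within its interval (-0.11, 95% interval -0.47 to 0.25). Txnip was lowest in LSEC, 1.86-fold under thymus, which passed in all 25 settings. On its brightest probe set thymus stood 1.44-fold above lung (adjusted p = 0.0129), and LSEC minus lung was -0.37 without passing (adjusted p = 0.0525). On 1415997_at lung minus thymus was 0.02 (adjusted p = 0.968) and LSEC minus lung -0.98, which passed (adjusted p = 0.0149). The order of lung and thymus therefore depended on the probe set: the call was lost with the mean of both (-0.25, adjusted p = 0.297), with median centring (-0.36, 0.0679), and without lung control replicate 1 (-0.46, 0.0778) or thymus control replicate 2 (-0.36, 0.129). LSEC minus lung passed in 11 of 25 settings, among them the mean of both probe sets (-0.68, adjusted p = 0.0119) and the omission of any one thymus array.

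On its brightest probe set Sod1 was highest in LSEC, 1.84-fold above lung. Lung and thymus did not differ there beyond their spread (0.06, 95% interval -0.19 to 0.30). LSEC minus lung also passed on 1451124_at (0.60, adjusted p = 0.000329), but not on 1435304_at (0.05, 0.8) or 1440222_at (-0.09, 0.607). On 1440222_at lung lay above thymus by 0.56 (adjusted p = 0.00508). With the mean of all Sod1 probe sets the LSEC excess over lung was 0.33 on the log2 scale and that over thymus 0.51, and neither passed (adjusted p = 0.278 and 0.0699). Gpx1 was highest in LSEC, 1.23-fold above lung (adjusted p = 0.012) and 1.98-fold above thymus; without lung control replicate 1 or 2 the first of these did not pass (0.054 and 0.0773). Sod2 was lowest in thymus, 1.83-fold under LSEC and 2.20-fold under lung. Between LSEC and lung its difference of -0.27 did not pass (adjusted p = 0.0779) and passed in 3 of 25 settings, without LSEC Cre+ replicate 3 (0.0274), with array weights (0.0442) and in a fit of the compared arrays (0.0467). Probe set 1454976_at gave -0.29 between LSEC and lung, which passed (0.0301), and 0.07 between LSEC and thymus, which did not (0.52). Between LSEC and lung, 1448610_a_at pointed the other way at 0.29 (95% interval -0.05 to 0.64, adjusted p = 0.152). There 1417194_at gave -0.16 (0.368), and neither passed, so the direction depended on the probe set. Prdx3 was lowest in LSEC, by 1.79-fold against lung and 1.45-fold against thymus, and lung and thymus gave 0.30 (adjusted p = 0.0948).

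Sod3 was highest in the lung endothelial cell samples on both probe sets. On 1417634_at, the brighter one by its mean over all arrays, control lung read 7.59 and 8.16, while the control means of LSEC and thymus, 6.17 and 6.36, lay under the limit, so that the gene was tested through lung alone and the sizes of its differences are uncertain. LSEC minus lung was -1.71 (adjusted p = 0.00268), and lung minus thymus was 1.52 (adjusted p = 0.00603). On 1417633_at, with control lung at 9.26 and 9.71 and control means of 4.27 in LSEC and 6.56 in thymus, the same differences were -5.22 and 2.93 and both passed. LSEC and thymus differed by -0.19 (adjusted p = 0.668) on the first, and by -2.29 (adjusted p = 0.000248) on the second. On the first probe set the excess of lung over thymus was lost without lung control replicate 2 (adjusted p = 0.0553) or thymus control replicate 2 (0.0636). Cat passed in no pair, at 0.34, 0.34 and 0.00 for LSEC minus lung, LSEC minus thymus and lung minus thymus. LSEC minus thymus passed in 4 of 25 settings: without LSEC Cre+ replicate 2 (adjusted p = 0.0471), with median centring (0.59, adjusted p = 0.01), and in both fits with a replicate block. LSEC minus lung passed in 1 of 25. In all, 6 of 10 members passed between LSEC and lung controls, 8 of 10 between LSEC and thymus and 7 of 10 between lung and thymus, where 46.1%, 64.9% and 60.5% of all genes passed. The median over all genes was 0.10 for LSEC minus thymus, with -0.03 on the deposited scale and 0.19 after median centring.

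The other genes of redox defence and of the sestrin and Txnip pathways were read from 8 lists with 85 genes, 76 of which were tested. In LSEC 2 rose and 7 fell in limma, where 6.06% of all genes passed, with a median log2 fold change of 0.01 as over all genes. In lung none passed, where 0.107% of all genes did (median 0.00, against 0.02 over all genes), and in thymus 1 fell, where 0.414% of all genes passed (median 0.01, against 0.02). Slc7a11, which encodes the cystine importer that feeds glutathione synthesis, fell by 1.17 in LSEC (adjusted p = 0.00195), from a mean of 7.30 to 6.13, as the only 1 of 7 genes of glutathione supply. Nqo1, a quinone reductase gene of the NRF2 pathway, rose by 1.48 (adjusted p = 0.00131) from 5.87, under the limit, to 7.35. The other 9 genes of the NRF2, heme and metal list did not pass. Among 6 other peroxide enzymes Gpx8, which acts in the endoplasmic reticulum, fell by 0.79 (adjusted p = 0.0236), and among 14 thioredoxin and glutaredoxin genes Glrx fell by 0.53 (adjusted p = 0.0381). Selenow, a small selenoprotein gene, rose by 0.45 (adjusted p = 0.0263) among 8 genes for selenoproteins and their synthesis. None of 7 genes of superoxide production passed, and their median was -0.30.

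Of 16 genes that link sestrins to mTORC1, Wdr59, which encodes a subunit of the sestrin-binding GATOR2 complex, fell by 0.56 (adjusted p = 0.0272). Sesn2, the third sestrin gene, gave -0.26 (adjusted p = 0.279) and was named after its value was seen. Around Txnip, 3 of 8 genes fell: Mlxip by 0.67 (adjusted p = 0.00798), which encodes the glucose-sensing factor MondoA that drives Txnip, Arrdc3 by 0.58 (adjusted p = 0.013), a relative of Txnip, and Slc2a1 by 0.55 (adjusted p = 0.0174), the glucose transporter that Txnip restrains. In thymus Selenop, which encodes the selenium carrier of plasma, fell by 0.70 (adjusted p = 0.0487).

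Several of these calls rested on few arrays. Those of Mlxip, Nqo1 and Slc7a11 held under every alternative in which the gene was tested. Arrdc3 was lost without LSEC control replicate 1 (adjusted p = 0.0508), Gpx8 without LSEC control replicate 2 (0.0558) or Cre+ replicate 1 (0.0786), and Slc2a1 without LSEC control replicate 3 (0.0533), Cre+ replicate 1 (0.0552) or Cre+ replicate 3 (0.0506). Wdr59 was lost without LSEC control replicate 2 or 3 or Cre+ replicate 1 or 2 (0.078 to 0.0975), and Selenow without LSEC control replicate 2 or 3 or Cre+ replicate 2 or 3 (0.0794 to 0.0977). Glrx and Selenop passed in 9 and 6 of 25 settings. Leaving out 1 array kept the Glrx call only for LSEC control replicate 1 and the thymus Cre+ replicates, and the Selenop call only for LSEC Cre+ replicates 2 and 3 and thymus Cre+ replicate 2.

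**Figure D5:**
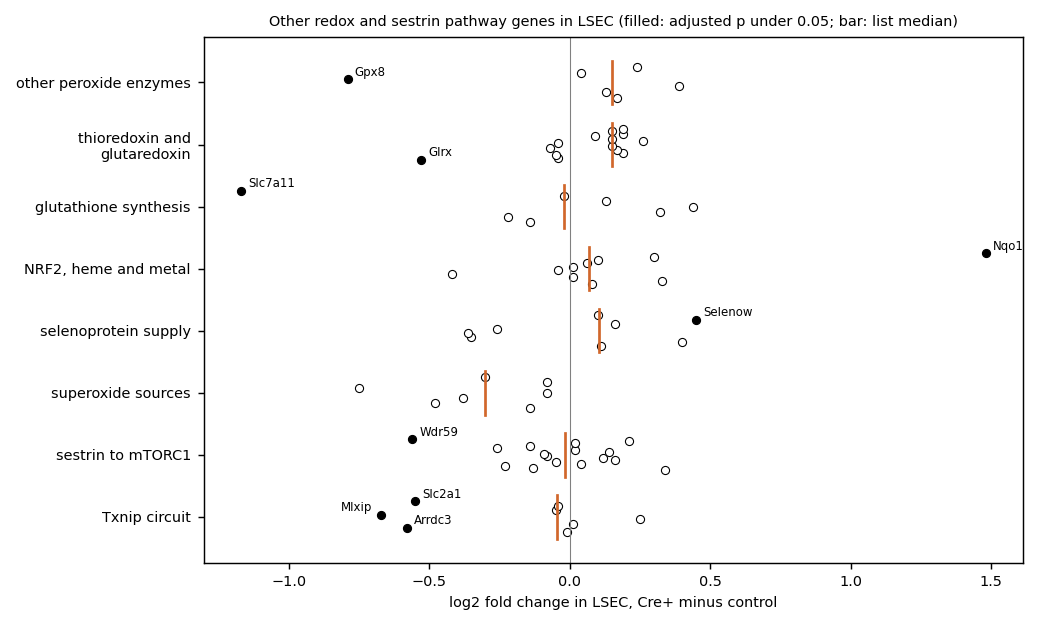
Log2 fold change in LSEC, Cre+ minus control, of the 76 tested genes of the 8 redox, sestrin and Txnip pathway lists; filled points passed at an adjusted p under 0.05 and orange bars are list medians. Nqo1 at 1.48 and Slc7a11 at -1.17 lie farthest out, and the 3 filled points of the Txnip list lie between -0.67 and -0.55.

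To describe which genes varied most like the members that passed in LSEC, the 6 group means of each tested gene were centred and the root mean square distance to the member was taken over 13033 genes. The 6 means include control and Cre+ LSEC, so a similar LSEC change follows from the choice and is no separate result. Closest to Sod2 were Bmx, a tyrosine kinase gene, at 0.0822, the olfactory receptor gene Olfr2 at 0.0882 and Snx10, a sorting nexin gene, at 0.102, where the median gene lay at 0.637. Their own LSEC fold changes, 0.51, 0.44 and 0.37, did not pass in limma (adjusted p = 0.0533, 0.234 and 0.107). Closest to Gpx3 were Limch1 at 0.435, the growth factor gene Tgfb3 at 0.451 and Mmd at 0.453, with a median of 1.95 over all genes. In LSEC Mmd fell by 2.27 (adjusted p = 2.09e-06) and Limch1 by 0.90 (adjusted p = 0.0133), and Tgfb3 gave -1.19 (adjusted p = 0.24). Closest to Sesn1 were the ceramide kinase gene Cerk at 0.151, Gm17250 at 0.178 and the repair gene Rad52 at 0.184, with a median of 0.676. Cerk fell by 0.54 in LSEC (adjusted p = 0.0287), and the other two gave -0.37 and -0.39 without passing.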

How the data were processed

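The files hold 1 value per probe set and array. The values were read as log2, as deposited: they run from 0 to 13.8, which fits the range of a scanner on that scale, while the log base and the authors' summarisation and normalisation are not given in the sources used. Per the labels' protocols, RNA was isolated with Trizol and RNeasy and made into biotin-labelled cRNA from an oligo-dT primer with a T7 promoter.

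Array medians ran from 6.75 to 7.04, so the arrays were quantile normalised. Each of 18193 genes was read from its brightest probe set (by the mean over all arrays) with a single symbol, and 13034 were tested with a mean of 6.87, the 40th percentile, or more in at least 1 tissue. The platform annotation and the gene table of GRCm38.p6 gave the names: 34945 probe sets had 1 symbol, 932 several and 9160 none. A model of 6 group means was fitted to all 14 arrays in limma 3.58.1 (R 4.3.3), with 8 residual degrees of freedom, and the Benjamini-Hochberg adjustment ran per contrast over all genes, or over 27022 probe sets in a second fit, at a threshold of 0.05. Every adjusted p in the text is limma's. The script was tested on simulated data.

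The members and lists were chosen with earlier results of these data known. The genes named are the members, the FoxO genes, the pathway genes that passed, and the 3 closest genes to each member that passed in LSEC; Sesn2, and Alb among the markers, fall outside this rule. Same-numbered control and Cre+ arrays did not deviate together (r from -0.309 to 0.052), so no block was used in the main fit. Arrays with unlike numbers gave r from -0.094 to 0.328. With 2 or 3 arrays a group this check cannot exclude a pairing. Alternatives were other scalings, filters, probe set rules, weights, the compared arrays alone, a block for the replicate number, and the omission of 1 array at a time.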

Additional observations from a re-analysis of the deposited data

Results flagged for a closer look

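The test of the difference between genotype effects picked out 3 values, all between LSEC and thymus. Gpx3 differed by -2.58 on the log2 scale (limma adjusted p = 0.0101 for the difference). Its Cre+ minus control value was -2.21 in LSEC, with all 3 Cre+ arrays below all controls. In thymus its value was 0.37 and did not pass (limma adjusted p = 0.7). The thymus Cre+ arrays lay above the controls by a narrow gap, with 8.79 the lower Cre+ value and 8.76 the higher control. Groups did not overlap in thymus for 41.6% of all genes, so this gap shows no rise of Gpx3 there. Sod2 differed by 0.72, from 0.68 in LSEC and -0.04 in thymus (adjusted p = 0.0451), and its probe set 1454976_at differed by 0.83 (adjusted p = 0.0155). In the fit over probe sets the other Sod2 probe sets did not pass (adjusted p from 0.0584 to 0.997). The part of cell composition in these differences was not tested. LSEC marker RNA fell in the same Cre+ LSEC arrays, from summed levels of 18551 to 26742 down to 5456 to 9574.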

How the results depend on the processing

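Gpx3 and Sod2 passed in LSEC in all 25 settings, with log2 fold changes of -2.47 to -2.03 and 0.57 to 0.80, and Sesn1 in 20 of 25. Of 3515 single values under 24 alternatives, 3299 kept their direction and side of the threshold, 171 lost the call, 45 gained it and 0 called values changed sign, while 70 uncalled values did. The 8 member probe sets of LSEC became 5 with no filter, 3 in a fit of the compared arrays and 5 with the replicate block, and 5 to 8 when 1 array was left out. Calls over all genes moved too, from 790 in LSEC to between 496 and 889 with 1 array left out. The shares over all features in each setting are not given here, so changes in the member counts are no result about the members alone. In thymus the stricter filter gave 1 member and 1 probe set, trend and robust options 1 and 2, and leaving out 1 array 0 to 1 probe sets. The 2 members that differed between LSEC and thymus became 1 with median centring, on the deposited scale, with no filter, with array weights and in a fit of the compared arrays, and 0 to 2 when 1 array was left out. The difference between LSEC and lung gained 1 member on the deposited scale, with the stricter filter, with the mean of probe sets and with trend and robust options, 2 with array weights, and 0 to 1 when 1 array was left out.

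With the replicate number as a block, 0 members differed between LSEC and thymus, also 0 with the lung numbers crossed, an alternative chosen after seeing the data, and Sesn1 in LSEC had an adjusted p of 0.0911. Between controls, Cat passed for LSEC minus thymus with the block (adjusted p = 0.0394) and with the lung numbers crossed (0.0337), and for LSEC minus lung with the latter (0.0475). Same-numbered arrays did not deviate together, but with so few arrays a group this cannot exclude a pairing, so the fits with a block remain possible readings. Over all genes, the 790 calls in LSEC became 496 without LSEC control replicate 2, the 14 in lung became 2 without lung control replicate 1, and the 54 in thymus ran from 15 without thymus control replicate 2 to 232 without thymus Cre+ replicate 1. Values under 6.87, as for Sod3 in LSEC and thymus and Sesn3 in LSEC, have uncertain fold sizes.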
